A study of Homo sapiens with 6 samples.

Results

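The enzymes that carry glycolysis from glyceraldehyde 3-phosphate to lactate were examined in SW1736 cells, an established human anaplastic thyroid cancer (ATC) line. They comprise 8 genes (GAPDH, PGK1, PGAM1, ENO1, ENO2, PKM, LDHA and LDHB), picked by gene symbol from the 20288 protein-coding genes of the count table, and all 8 passed the filter on low counts. The cells were kept for 72 h at 21% O2 (normoxia, n = 3 libraries) or at 2% O2 (hypoxia, n = 3 libraries), and the labels name no genetic change or drug in either group. Total RNA was made into small RNA libraries with CATS, which tails each RNA instead of ligating adapters to it, so a count here is a short fragment that aligned to 1 spliced transcript per gene. The labels number the libraries (N1 to N3 for normoxia and H1 to H3 for hypoxia in what follows) and do not say if each came from its own culture, and p-values reflect the spread among these libraries, which may be technical. As these are bulk samples of 1 line, a change in RNA per cell and a change in the makeup of the culture cannot be told apart.

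Lower glycolysis is the section of the pathway that pays back energy. GAPDH oxidizes glyceraldehyde 3-phosphate, PGK1 makes ATP from its product, PGAM1 moves the remaining phosphate, the enolases ENO1 and ENO2 remove water, and pyruvate kinase (PKM) makes ATP again and leaves pyruvate. Lactate dehydrogenase then turns pyruvate to lactate and gives back the NAD+ that GAPDH needs, and its tetramers are built from the A subunit (LDHA) and the B subunit (LDHB). ENO1 is the widespread enolase and ENO2 the one known from neurons. In many cell types several of these genes are known targets of hypoxia-inducible factor (HIF), which binds DNA at the core letters ACGTG or GCGTG.

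The library totals ran from 1469151 to 1781753 counts over the miRNA and mRNA tables, and the 8 genes together took 0.32% to 0.42% of the mRNA counts in normoxia and 0.425% to 0.504% in hypoxia. Normoxia library N2 had the highest normalized CPM (counts relative to the TMM-scaled library total) of the normoxic libraries for 7 of the 8 genes and the lowest for ENO2. It also had the lowest share of FN1, the fibronectin gene and the largest single mRNA feature, with 1.67% of the mRNA counts against 2.10% to 2.69% in the other 5 libraries. Why N2 differed was not tested. For the 8 genes, each call below is given with and without N2 where they differ. For genes outside the 8, values without N2 are not given, so it is not known if their calls hold without it. Of the thyroid follicular markers reported here, PAX8 (170 to 261 counts per library) and FOXE1 (28 to 59) passed the filter, while TG, TSHR, SLC5A5 and NKX2-1 did not, at 0 to 11 counts in any library. Listed markers of endothelial, leukocyte and erythroid cells stayed at 7.07 to 33.4 normalized CPM per list in every library.

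The promoters of PGK1, LDHA and LDHB are shown because the first 2 of these genes were called higher in hypoxia and LDHB, the partner subunit of LDHA, was not, and because in each the window surrounds the start of the counted transcript. Each window runs from 250 bases before to 50 bases after the RefSeq start on the gene's own strand (GRCh38.p14), 5′ to 3′, and capitals mark ACGTG or GCGTG on either strand, so CACGT and CACGC mark the reverse strand and CACGTG holds a match on both.
PGK1, chrX:78103998-78104297, plus strand: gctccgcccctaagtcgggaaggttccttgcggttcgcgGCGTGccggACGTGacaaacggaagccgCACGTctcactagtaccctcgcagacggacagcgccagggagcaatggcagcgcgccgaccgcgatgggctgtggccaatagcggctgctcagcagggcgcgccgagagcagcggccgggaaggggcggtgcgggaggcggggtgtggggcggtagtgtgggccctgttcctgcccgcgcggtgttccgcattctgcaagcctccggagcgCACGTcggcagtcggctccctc
LDHA, chr11:18394313-18394612, plus strand: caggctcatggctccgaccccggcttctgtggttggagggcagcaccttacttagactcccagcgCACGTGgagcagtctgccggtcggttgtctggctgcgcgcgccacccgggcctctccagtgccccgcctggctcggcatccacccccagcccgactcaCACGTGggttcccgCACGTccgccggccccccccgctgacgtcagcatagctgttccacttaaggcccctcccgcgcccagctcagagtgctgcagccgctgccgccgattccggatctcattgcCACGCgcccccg
LDHB, chr12:21657793-21658092, minus strand: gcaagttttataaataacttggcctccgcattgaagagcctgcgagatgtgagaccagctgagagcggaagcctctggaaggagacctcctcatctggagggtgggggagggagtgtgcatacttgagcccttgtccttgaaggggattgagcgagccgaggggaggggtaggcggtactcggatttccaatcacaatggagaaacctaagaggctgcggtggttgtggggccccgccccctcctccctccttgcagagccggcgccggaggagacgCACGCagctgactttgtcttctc
The PGK1 window held 4 matches and the LDHA window 6, of which 4 came from 2 CACGTG runs, while the LDHB window held 1, a CACGC that begins 28 bases into the transcript. Of the 35116 windows of this length in the RefSeq table, 48.4% held at least 1 match of either motif on either strand and 4.4% held at least 4. In the windows of the other genes there were 2 matches for GAPDH, both from 1 CACGTG, 2 for ENO1, 1 each for ENO2 and PKM, and none for PGAM1. For these genes no start of the counted transcript was found within 50 bases of the RefSeq start. The start of the counted ENO1 transcript could not be placed at all, as that transcript was not matched in GENCODE 44. A second RefSeq start of LDHA had 1 match. These are matches of letters only, and binding was not measured. The windows shown were picked after the calls were known, and LDHB alone stands there for the genes not called. Their contrast therefore cannot relate matches to the rises, and such a link was not tested.

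PGK1 and LDHA rose in hypoxia and the other 6 genes did not pass the test. Both rises were about equal in size, with fitted folds of 1.65 for PGK1 (95% interval 1.41 to 1.95) and 1.65 for LDHA (1.39 to 1.95). Among the 11082 mRNA features tested, 0.596% were called higher and 0.144% lower by edgeR's quasi-likelihood test at an adjusted p under 0.05, and of the 8 genes 2 were higher and none was lower. For PGK1 and LDHA every hypoxic library exceeded every normoxic one, a separation seen in 8.27% of the mRNA features, while no gene of the 8 had all hypoxic libraries below, as 7.01% of the features did. At an unadjusted p under 0.05 in edgeR, which 5.64% of the mRNA features passed upwards and 4.74% downwards, GAPDH was higher too, and none of the 8 was lower. The median log2 fold change of the 8 genes was 0.31, against -0.006 over all mRNA features tested.

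**Figure D1:**
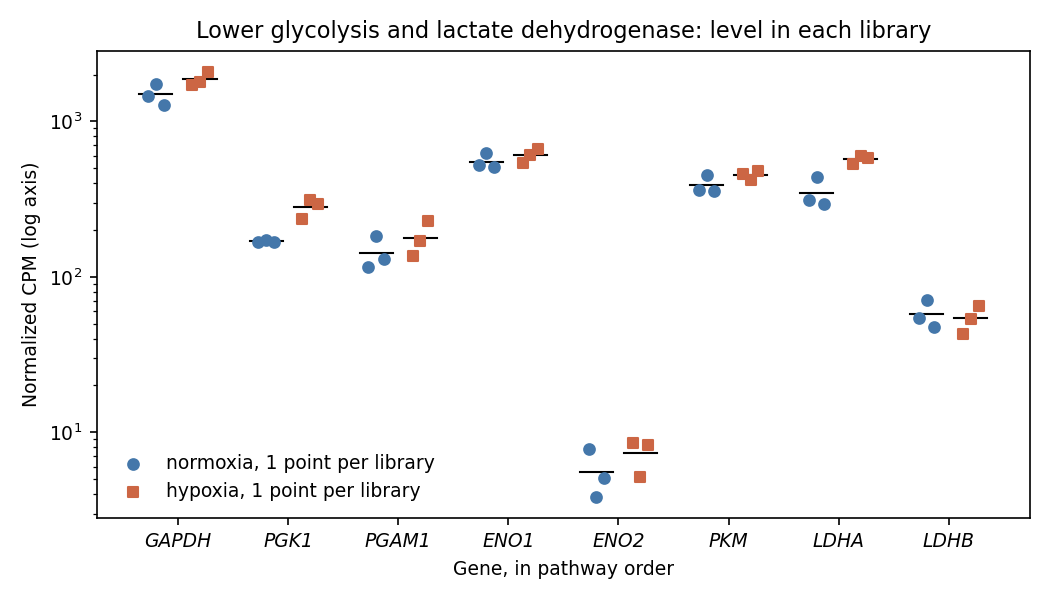
Normalized CPM (log axis) of the 8 genes in pathway order, with circles for the 3 normoxic and squares for the 3 hypoxic libraries and a line at each group mean. PGK1 and LDHA are the genes whose hypoxic squares all lie above the normoxic circles, and ENO2 lies far below the rest, at 3.86 to 8.58 normalized CPM.

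PGK1, the first of the pathway's enzymes to make ATP, had almost the same level in every normoxic library. It stood at 168, 172 and 167 normalized CPM in N1, N2 and N3 (260, 267 and 263 counts), and at 236, 311 and 292 in H1, H2 and H3 (385, 539 and 420 counts). The hypoxic libraries varied more among themselves than the normoxic ones, yet the lowest of them was clear of the highest normoxic library. Over all features, pairs of normoxic libraries differed by more than sampling noise, with chi-square per degree of freedom of 2.27 to 3.12. Such evenness over 3 libraries is therefore no measure of how steady PGK1 is in normoxia. The group means were 169 ± 2.35 and 279.5 ± 38.9 normalized CPM (SD, n = 3 each), a log2 change of 0.73 (SE 0.115, edgeR adjusted p = 5.57e-04). Leaving out 1 library gave values from 0.64, without H2, to 0.83, without H1, and PGK1 was called in all 6 of these fits (highest edgeR adjusted p = 0.0276). The gene PGK1 (ENSG00000102144.14) occupies bases 77910739 to 78129295 of chromosome X in GRCh38, plus strand, a span that begins far upstream of the start shown above.

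LDHA, whose subunit favors the step from pyruvate to lactate, rose by as much but from a less even baseline. LDHA stood at 309.7, 438 and 292 normalized CPM in N1, N2 and N3 (478, 681 and 460 counts) and 529.5, 596 and 585 in H1, H2 and H3 (864, 1033 and 842 counts). N2 stood above the other normoxic libraries and still below every hypoxic one. The means were 346 ± 79.5 and 570.1 ± 35.5 normalized CPM (SD, n = 3 each), a log2 change of 0.72 (SE 0.12, edgeR adjusted p = 9.39e-04). Without N2 it was 0.91 (edgeR adjusted p = 2.36e-05), the highest of the 6 values with 1 library left out, and the lowest was 0.61, without N3 (edgeR adjusted p = 0.0335). The gene LDHA (ENSG00000134333.13) occupies bases 18394560 to 18408425 of chromosome 11 in GRCh38, plus strand.

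LDHB, whose subunit is known from tissues that take up and oxidize lactate, did not pass the test. Its level was 54.4, 70.7 and 47.6 normalized CPM in N1, N2 and N3 (84, 110 and 75 counts) and 42.9, 53.6 and 65.3 in H1, H2 and H3 (70, 93 and 94 counts). The groups overlapped over most of their range. The log2 fold change was -0.10 (95% interval -0.47 to 0.27, edgeR adjusted p = 0.899), an interval that lies below the fitted value of LDHA. The sign was not stable, as the value was 0.066 without N2 and 0.037 without H1. The gene LDHB (ENSG00000111716.12) occupies bases 21635342 to 21757857 of chromosome 12 in GRCh38, minus strand.

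LDHA fragments outnumbered LDHB fragments by more in every hypoxic library than in any normoxic one. The ratio of LDHA to LDHB counts, which does not depend on any scaling between libraries, was 5.69, 6.19 and 6.13 in N1, N2 and N3 and 12.3, 11.1 and 8.96 in H1, H2 and H3. The 3 normoxic ratios were close to each other, and the hypoxic ones were spread more widely. The means were 6.01 ± 0.274 and 10.8 ± 1.71 (SD, n = 3 each). On the log2 scale the difference was 0.84 (standard error 0.141), a 1.78-fold higher ratio, with p = 0.1 from the exact two-sided permutation test, the smallest p that 3 libraries against 3 allow (p = 0.2 when adjusted over the 2 ratios tested). With 1 library left out the difference ran from 0.73 to 0.96. As a share of the counts of both subunits, LDHA took 85.1% in N1 (95% exact Clopper-Pearson interval 81.8% to 87.9%) and 92.5% in H1 (90.6% to 94.1%). H3 had the lowest hypoxic share, 90% (87.8% to 91.8%), and its interval overlaps those of the 3 normoxic libraries, such as N2 at 86.1% (83.5% to 88.4%). These intervals treat each read as an independent molecule and leave out the variation between libraries. Reads copied by PCR are not independent, so the intervals may be too narrow even for counting error.

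**Figure D2:**
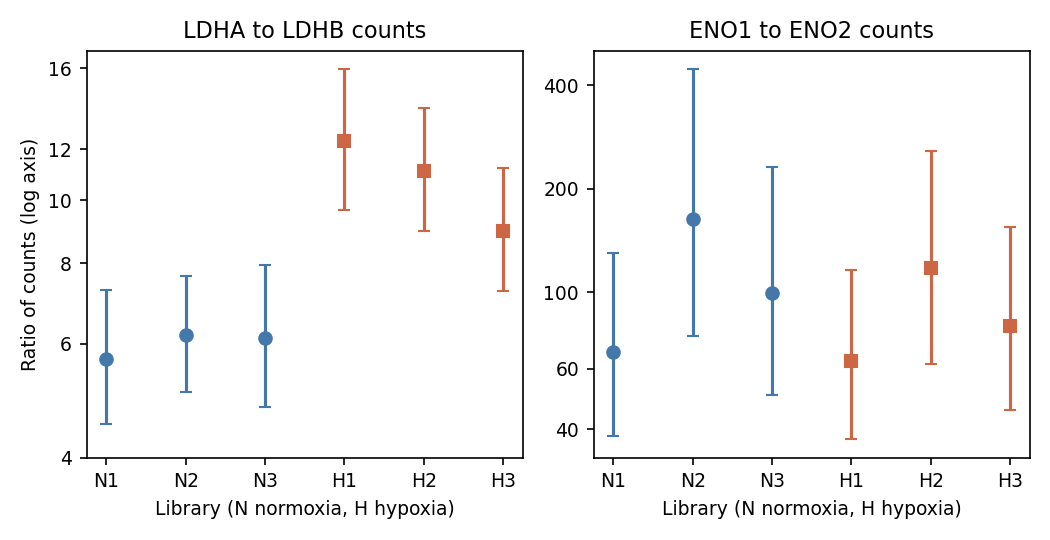
Ratio of counts (log axis) in each library, LDHA to LDHB on the left and ENO1 to ENO2 on the right, with N for normoxia, H for hypoxia and bars for the 95% exact counting interval. The LDHA to LDHB ratios are 5.69 to 6.19 in normoxia and 8.96 to 12.3 in hypoxia, while the ENO1 to ENO2 ratios of both groups overlap.

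The ratio of the enolases overlapped between the groups, and neither enolase passed the test. ENO1, the main enolase here, was at 521, 628 and 505 normalized CPM in N1, N2 and N3 (804, 977 and 796 counts) and at 541, 611 and 666 in H1, H2 and H3 (883, 1059 and 958 counts). The highest normoxic library lay above the lower 2 hypoxic ones. The log2 fold change was 0.14 (95% interval -0.08 to 0.35, edgeR adjusted p = 0.716), and the interval's upper end stays under the fitted value of PGK1. With 1 library left out, the value for ENO1 ran from 0.063, without H3, to 0.23, without N2. ENO2 was barely detected, with 12, 6 and 8 counts in N1, N2 and N3 and 14, 9 and 12 in H1, H2 and H3, and it passed the filter through 3 libraries that come from both groups. Its log2 fold change was 0.39 (95% interval -0.50 to 1.28, edgeR adjusted p = 0.82), so neither a fall to 0.705 of the normoxic level nor a 2.43-fold rise lies outside the interval at this depth. It was 0.70 without N1 and 0.18 without N2, the ends of its range with 1 library left out. The ratio of ENO1 to ENO2 counts was 67, 163 and 99.5 in N1, N2 and N3 and 63.1, 118 and 79.8 in H1, H2 and H3. The lowest and the highest hypoxic ratio both lay below their normoxic counterparts, but the groups overlapped, with a log2 difference of -0.29 (standard error 0.454, p = 0.6 from the exact two-sided permutation test). The counting interval of a single library was wide, for example 74.5 to 445 in N2, and without that library the difference was 0.041. In GRCh38 ENO1 (ENSG00000074800.14) occupies bases 8861000 to 8879190 of chromosome 1, minus strand, and ENO2 (ENSG00000111674.8) bases 6913745 to 6923698 of chromosome 12, plus strand.

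GAPDH, the most abundant of the 8 and a reference gene of RT-qPCR in the study, had a higher mean in hypoxia without passing the test. It stood at 1459, 1732 and 1283 normalized CPM in N1, N2 and N3 (2252, 2695 and 2020 counts) and at 1722, 1783 and 2078 in H1, H2 and H3 (2810, 3092 and 2990 counts). N2 reached just past H1, and the other libraries did not overlap. The log2 fold change was 0.32 (95% interval 0.10 to 0.54, edgeR adjusted p = 0.196). Without N2 it was 0.43 and GAPDH was called (edgeR adjusted p = 0.0467), and in the other 5 fits that leave out 1 library it was not (highest adjusted p = 0.547). ACTB, the other reference gene of the study, had a log2 fold change of -0.11 (95% interval -0.33 to 0.10, edgeR adjusted p = 0.762). The gene GAPDH (ENSG00000111640.14) occupies bases 6534512 to 6538374 of chromosome 12 in GRCh38, plus strand.

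PGAM1 and PKM did not pass the test, and the libraries of both groups overlapped for each. PGAM1, the phosphoglycerate mutase, was at 116, 182 and 131 normalized CPM in N1, N2 and N3 (179, 283 and 206 counts) and at 135, 169 and 228 in H1, H2 and H3 (221, 293 and 328 counts). N2 exceeded 2 of the hypoxic libraries, and the log2 fold change of 0.31 (95% interval -0.01 to 0.62, edgeR adjusted p = 0.495) ran from 0.092, without H3, to 0.51, without N2, with 1 library left out. PKM, the pyruvate kinase of most tissues, was at 362, 449 and 358 normalized CPM in N1, N2 and N3 (558, 699 and 564 counts) and at 457, 422 and 479 in H1, H2 and H3 (745, 732 and 690 counts). N2 again fell among the hypoxic libraries, and the log2 fold change was 0.22 (95% interval -0.003 to 0.43, edgeR adjusted p = 0.488). In GRCh38 PGAM1 (ENSG00000171314.8) occupies bases 97426191 to 97433444 of chromosome 10, plus strand, and PKM (ENSG00000067225.17) bases 72199029 to 72231819 of chromosome 15, minus strand.

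The count of PKM does not tell its splice forms apart. PKM is spliced to PKM1 or PKM2, the form known from growing and tumor cells, through a pair of mutually exclusive exons. The transcript in the table (ENST00000319622.10) holds in GENCODE 44 the upstream exon of the pair, that of PKM1, at 72203022 to 72203188 on chromosome 15. The downstream exon at 72202454 to 72202620, that of PKM2, belongs to a transcript that is not in the table, so fragments inside those 167 bases could not be counted in this row. Counts per exon were not measured, so the share of the count from the PKM1 exon and from the exons common to both forms is not known. Of the 4 splicing factors of this choice that were listed (PTBP1, HNRNPA1, HNRNPA2B1 and SRSF3), none passed the edgeR test, also at an unadjusted p under 0.05, with log2 fold changes of -0.20 to 0.008.

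**Figure D3:**
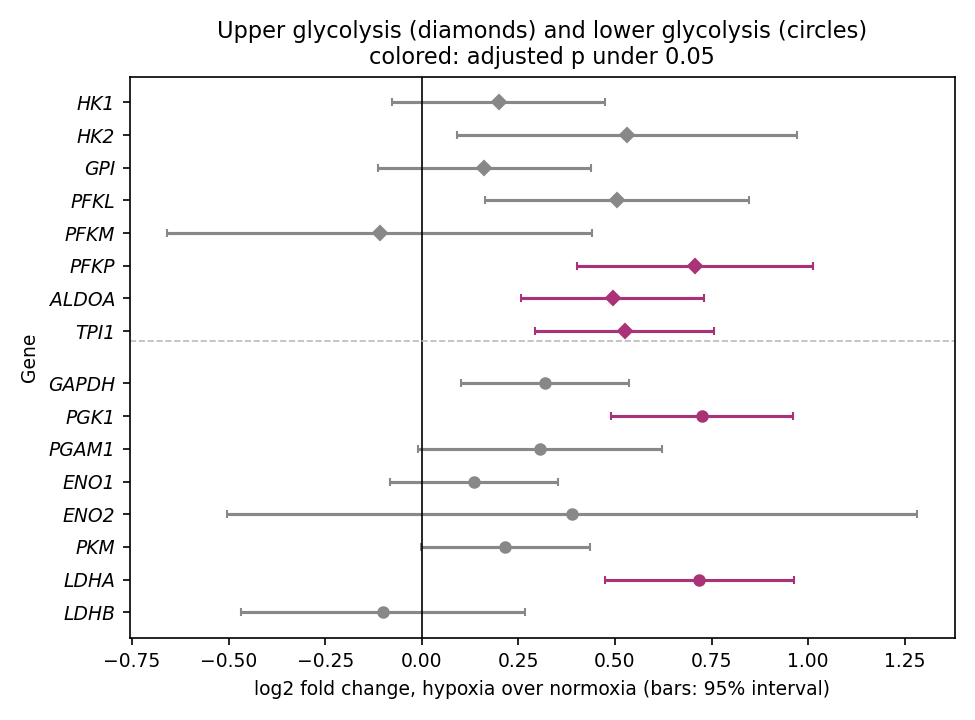
Log2 fold change of hypoxia over normoxia with its 95% interval, for the 8 tested genes of upper glycolysis (diamonds, above the dashed line) and the 8 of lower glycolysis (circles). Colored genes passed an adjusted p under 0.05, namely PFKP, ALDOA and TPI1 above the line and PGK1 (0.73) and LDHA (0.72) below it.

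Within the 8 genes, LDHA and PGK1 took a larger share of the fragments in hypoxia and ENO1 and LDHB a smaller one. LDHA made up 10.3%, 11.9% and 10.5% of the summed counts in N1, N2 and N3 and 14.4%, 15.1% and 13.3% in H1, H2 and H3. PGK1 made up 4.67% to 5.99% in normoxia and 6.42% to 7.87% in hypoxia. ENO1 made up 17.4%, 17.1% and 18.1% in N1, N2 and N3, all above the 14.7%, 15.5% and 15.1% of H1, H2 and H3. LDHB made up 1.71% to 1.92% in normoxia and 1.168% to 1.48% in hypoxia, again with no overlap. These shares need no scaling between libraries, but they are not independent of each other, since a gain of one gene lowers the others, and no test was run on them. In normalized CPM the groups overlapped for ENO1 and LDHB, with log2 fold changes of 0.14 and -0.10. On that scale 8.27% of all mRNA features had every hypoxic library above every normoxic one, and 7.01% had every one below. For shares within the 8 genes no such background was computed. GAPDH kept close to the same share, with a mean of 47.3% (SD 1.34) under normoxia against 46.4% (SD 1.11) under hypoxia, and PGAM1, PKM and ENO2 overlapped between the groups too.

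**Figure D4:**
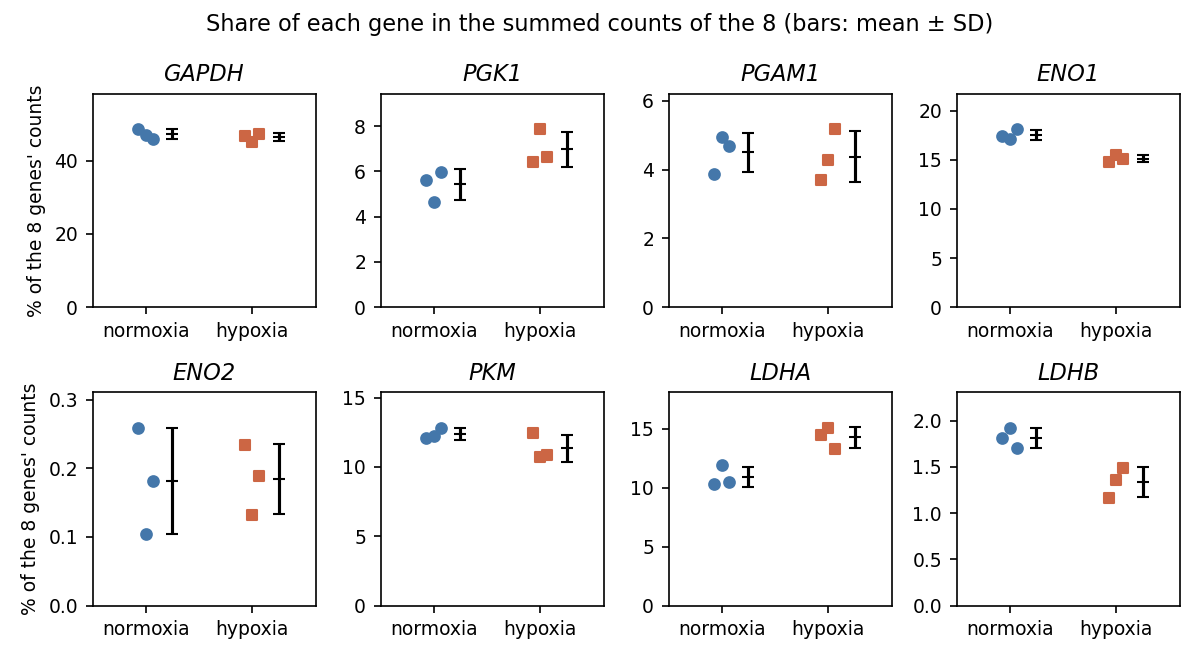
Share of each gene in the summed counts of the 8 genes, in percent, with 1 point per library (circles normoxia, squares hypoxia) and the mean ± SD beside it. The groups are apart for PGK1 and LDHA (higher in hypoxia) and for ENO1 and LDHB (lower), as in ENO1 from 17.5% to 15.1% on average. In normalized CPM the groups of ENO1 and LDHB overlap.

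Set against GAPDH in the same library, PGK1 and LDHA differed by less between the groups. There were 21.2, 25.3 and 22.8 LDHA counts per 100 GAPDH counts in N1, N2 and N3 and 30.7, 33.4 and 28.2 in H1, H2 and H3, a log2 difference of 0.41 where the fit across all features gave 0.72. For PGK1 there were 11.5, 9.91 and 13 counts per 100 of GAPDH in N1, N2 and N3 and 13.7, 17.4 and 14 in H1, H2 and H3, a log2 difference of 0.39. Neither gene's groups overlapped on this scale. ENO1 went in the other direction against GAPDH, with 35.7 to 39.4 counts per 100 of GAPDH in normoxia and 31.4 to 34.2 in hypoxia, a log2 difference of -0.19. LDHB had 3.71 to 4.08 in normoxia and 2.49 to 3.14 in hypoxia, a log2 difference of -0.42. In the fit across all features GAPDH itself had a log2 fold change of 0.32, ENO1 0.14 and LDHB -0.10. The counts per 100 of GAPDH therefore also move with GAPDH, and no test was run on them.

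Per length of coding sequence GAPDH led in every library and ENO2 came last. In normoxia the mean levels, in normalized CPM per kilobase of coding sequence, were 1484 for GAPDH, 423.5 for ENO1, 348 for LDHA, 245 for PKM, 188 for PGAM1, 135 for PGK1, 57.5 for LDHB and 4.28 for ENO2. Of the neighbours in this order, ENO1 and LDHA overlapped between libraries (388 to 482 and 293 to 439), as did PKM and PGAM1 (225 to 282 and 152 to 239). In hypoxia LDHA, at 572 (532 to 598), stood above ENO1, at 465 (416 to 511), with no overlap. PKM at 284, PGAM1 at 233 and PGK1 at 223 followed, and PGAM1 (178 to 299) overlapped both PKM (265 to 301) and PGK1 (189 to 248). The sources used here do not state which bases of a transcript could be counted, since non-coding parts of mRNAs were said to be left out while the length given is that of the whole transcript, so a level per kilobase carries that uncertainty. The place of LDHA depended on the length used, as with the length of the listed transcript it ranked behind ENO1 in hypoxia, at 236 normalized CPM per kilobase against 258.

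The other genes of the same steps were near the limit of detection. Of 12 listed isozymes and side enzymes, which include the testis forms GAPDHS, PGK2 and LDHC, the muscle forms PGAM2 and ENO3 and the liver and red cell form PKLR, only BPGM passed the filter on low counts. BPGM, which makes 2,3-bisphosphoglycerate in red cells, had 32 to 45 counts per library and a log2 fold change of -0.13 (edgeR adjusted p = 0.907). LDHC reached at most 11 counts in a library, ENO3 at most 8, PGK2 and PGAM4 at most 4, and the other 7 at most 5. PGAM4 is a near copy of PGAM1, and GENCODE 44 names 65 pseudogenes after GAPDH, 13 after PGAM1, 6 after LDHA, 5 after PKM, 4 after ENO1, 3 after LDHB, 2 after PGK1 and none after ENO2. The authors left reads of pseudogenes out, and how a short read that fits a gene and its copy was divided cannot be seen in the counts, so the levels of these genes carry that uncertainty.

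Upper glycolysis held further risers. Of the 13 listed genes 8 were tested, 3 of them rose and 5 missed the threshold (at an unadjusted p under 0.05 in edgeR, 5 were higher and 0 lower), beside the 0.596% and 5.64% of all mRNA features called higher at these thresholds, with a median log2 fold change of 0.50, against 0.31 for the 8 genes of lower glycolysis. TPI1, the isomerase just upstream of GAPDH, went up from 160 ± 5.12 normalized CPM (SD, n = 3) to 230.4 ± 25.8 (log2 fold change of 0.53, edgeR adjusted p = 0.0175). ALDOA, an aldolase, rose from 134 ± 9.15 to 189 ± 13.9 (log2 fold change of 0.49, edgeR adjusted p = 0.0295). PFKP, a phosphofructokinase, rose from 50.3 ± 3.18 to 82 ± 5.05 (log2 fold change of 0.71, edgeR adjusted p = 0.0135). Among the 13 tested genes of pyruvate and lactate transport and metabolism, kinases of pyruvate dehydrogenase included, 1 passed the test, upwards, and the other 12 missed the threshold (at an unadjusted p under 0.05 in edgeR, 1 was higher and 1, the malic enzyme gene ME1, lower), with a median log2 fold change of 0.02 (range -0.75 to 0.51). Over all mRNA features, 5.64% were higher and 4.74% lower at that unadjusted threshold. The riser of this list was SLC16A3, which exports lactate, up from 95.6 ± 8.86 normalized CPM (SD, n = 3) to 136 ± 12.7 (log2 fold change of 0.51, edgeR adjusted p = 0.0489). That call lay just under the threshold, and its values under other settings are not given. Of the 6 reference genes listed (ACTB, B2M, TBP, HPRT1, RPLP0 and PPIA) none passed the edgeR test (at an unadjusted p under 0.05, PPIA was lower), with log2 fold changes of -0.35 to 0.12. VIM, the mesenchymal marker vimentin, was the only gene of the cell type lists that passed, at a log2 value of 0.39 (edgeR adjusted p = 0.037), while the summed mesenchymal list overlapped between the groups, at 18653 to 26890 normalized CPM in normoxia and 23267 to 27960 in hypoxia. Most of that sum was FN1, with a mean of 19985 normalized CPM in normoxia and 20288 in hypoxia. The overlap of the sum therefore says little on the other genes of that list.

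The summed level of the 8 genes followed the same libraries. It was 2998, 3675 and 2789 normalized CPM in N1, N2 and N3 and 3672, 3949 and 4401 in H1, H2 and H3, so N2 just exceeded H1. Of 3082 other mRNA features with a mean of at least 100 counts per library, those with a pattern most like this sum over the 6 libraries were NDUFAF2 (Pearson r of 0.986), CNN3 (0.982), LITAF (0.978), CAPN2 (0.975) and ITGA6 (0.972). NDUFAF2 is an assembly factor of respiratory complex I, CNN3 a calponin, CAPN2 a calpain protease and ITGA6 an integrin chain. None of the 5 passed the test (lowest edgeR adjusted p = 0.35), and the correlation describes 6 libraries that share their groups and their scaling. As the 5 were picked as the highest of 3082, the size of their correlations is no measure of a link. GAPDH alone made up 45.1% to 48.7% of the summed counts of the 8 genes in each library, so the sum largely follows GAPDH.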

How the data were processed

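The 8 genes and the gene lists were chosen with earlier results of these data known. Total RNA of SW1736 cells was sequenced as CATS small RNA libraries. The authors trimmed reads with Cutadapt 1.17, set housekeeping small RNAs aside, and mapped what remained to miRBase 22 and then to GENCODE 28 transcripts, counting with eXpress. The submitters' processing notes name Bowtie, Bowtie2 and hg38. The deposited values are raw counts for each mature miRNA and each protein-coding transcript, and the deposited transcript length (in bases) was used for 1 comparison of levels. Per the paper's methods, reads from minor transcripts, pseudogenes and non-coding parts of mRNAs were discarded.

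Both tables were joined, and 11276 features (194 miRNAs, 11082 mRNA features) passed filterByExpr of edgeR 4.0.16 (R 4.3.3), at about 10 counts in 3 libraries. Counts were scaled by TMM and tested with glmQLFit and glmQLFTest, hypoxia against normoxia, with Benjamini-Hochberg adjustment over all 11276. The script was tested on simulated data, and no result rests on that. Standard errors and intervals come from its F statistic. Ratios were tested by exact two-sided permutation (scipy 1.17.1). Alternatives were other scalings, DESeq2 1.42.0, limma-voom (limma 3.58.1), no filter, the mRNA table alone, a replicate block and leaving out each library. Within each group no library repeated another, as no pair had identical counts. The chi-square per degree of freedom of these pairs, a variance relative to that of sampling noise, was 2.05 to 3.12. Pairs across the groups were not compared in this way.

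Every gene of the 8 was named, as were list genes that passed the test and the 5 features most like the summed level. Further genes (ACTB, BPGM, LDHC, ENO3, PGK2, PGAM4, ME1 and reference genes) were named after their values were seen. Coding length is that of the Ensembl canonical transcript in GENCODE 44, as no protein table was used. The gene spans are from GENCODE 44 too, read by gene name, while the identifiers beside them are those of the deposited counts. GENCODE 44 (GRCh38) is later than the authors' annotation, and the listed ENO1 transcript was not matched in it. Other cell types' markers were used as levels only, and 1 thyroid marker of the list is not reported here.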

Additional observations from a re-analysis of the deposited data

How the results depend on the processing

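PGK1 and LDHA were called higher, and none of the 8 genes lower, under both other scalings, DESeq2, limma-voom, no filter on low counts, the mRNA table alone, the replicate block, a robust estimate of the spread (an alternative chosen after seeing the data) and with any 1 library left out. The number of the 8 called higher ran from 2 to 3 with 1 library left out, the added gene being GAPDH without normoxia replicate 2 (log2 fold change of 0.43). The log2 fold changes with 1 library left out ran from 0.22 to 0.43 for GAPDH and from -0.25 to 0.066 for LDHB, with the highest value when normoxia replicate 2 was left out and 0.037 when hypoxia replicate 1 was. The log2 difference of the ENO1 to ENO2 ratio ran from -0.60 to 0.041, reached without normoxia replicate 2. Over all mRNA features, 66 were higher and 16 lower. The counts were 38 and 8 by DESeq2 and 38 and 6 with the replicate block, and 41 were lower with no filter. They ran from 26 to 66 higher and from 4 to 28 lower with 1 library left out. LDHA ranked 2 of the 8 per coding length in hypoxia and 3 in normoxia, but 3 and 4 without division by length, and 3 in hypoxia with the listed transcript's length. The cause of these changes was not tested.

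The labels do not say if same-numbered libraries form pairs. The deviations of same-numbered libraries from their group means correlated at 0.07, -0.049 and -0.31 over 3172 features. Those of differently numbered libraries ran from -0.27 (N2 with H1) to 0.32 (N2 with H3). With so few libraries per group these values cannot settle if the libraries were paired. With the replicate block the log2 fold change was 0.72 for PGK1 and 0.74 for LDHA. The scalings moved the median over all mRNA features by under 0.1 on the log2 scale. ENO2, at 6 to 14 counts per library, is limited by depth.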
